A study of Chrysanthemum x morifolium with 4 samples.

Results

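A small group of chrysanthemum leaf unigenes stood lower in both frozen libraries than in both unfrozen ones. A unigene is a transcript pieced together from the sequencing reads. Members were the unigenes whose smaller FPKM in the unfrozen libraries, control and acclimated, was at least 5 and at least 3 times the larger FPKM in the frozen libraries. FPKM is the read count scaled by the length of the unigene and by the library's summed count. The rule held for 12 of 93837 unigenes, 0.0128% of the table, and for 0.0831% of the 14444 unigenes with at least 5 FPKM in both unfrozen libraries. Because the FPKM of all 4 libraries chose the members, their lower level after freezing is a description and is not tested.

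Temperate plants that spend time at a low temperature above freezing usually become more tolerant of frost, a change called cold acclimation. Ice forming between the cells draws water out of them, so freezing brings dehydration and membrane strain together with low temperature. The level of a transcript reflects both its synthesis and its decay, so a low level after freezing can come from either, and a table of levels does not separate them. The deposited table pairs none of these unigenes with a gene name, so no function is given to any member. No sequences were used here.

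RNA came from leaves of the cultivar Jinba (Chrysanthemum x morifolium), from 20 day-old seedlings raised from tissue culture and then potted. The libraries were acclimated and frozen leaves (4 °C for 24 h, then -4 °C for 4 h), frozen leaves without acclimation (-4 °C for 4 h), acclimated leaves (4 °C for 24 h) and control leaves kept under normal conditions. There was 1 library per treatment, made by mixing the leaves of 3 replicates. Variation among plants is therefore unknown, and no p-value is given for any comparison. The unacclimated libraries also differ from the acclimated ones in the 24 h of treatment time, which cannot be told apart from the temperature. The same holds for the 4 h of freezing treatment beside each unfrozen library. Libraries held 14024558 counts (acclimated and frozen), 14345704 (frozen), 15179341 (acclimated) and 15781435 (control). Every interval is a 95% interval that covers counting error only. Near-identical gene copies, common in this species, may share reads between unigenes. Fewer cells with a transcript and less of it per cell cannot be told apart in whole leaves.

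Summed over the 12 members, counts scaled to library size (CPM) were 24.5 CPM in the acclimated and frozen library (exact interval 21.9 to 27.2) and 15.5 CPM in the frozen one (13.6 to 17.7). They were 131 CPM in the acclimated library (126 to 137) and 368 CPM in the control (359 to 378). A single unigene, c70228.graph_c0, supplied 39.4% of the members' counts in the acclimated and frozen library, 9.42% in the frozen, 22.0% in the acclimated and 27.5% in the control. Median levels over the 12 members were 1.64 FPKM in the acclimated and frozen library, 1.94 FPKM in the frozen, 10.9 FPKM in the acclimated and 29.0 FPKM in the control. No member was at 0 counts in any library. Frozen-library counts ran from 1 to 135, against 47 to 1599 in the unfrozen libraries, so the frozen values are the imprecise side of every ratio.

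**Figure D1:**
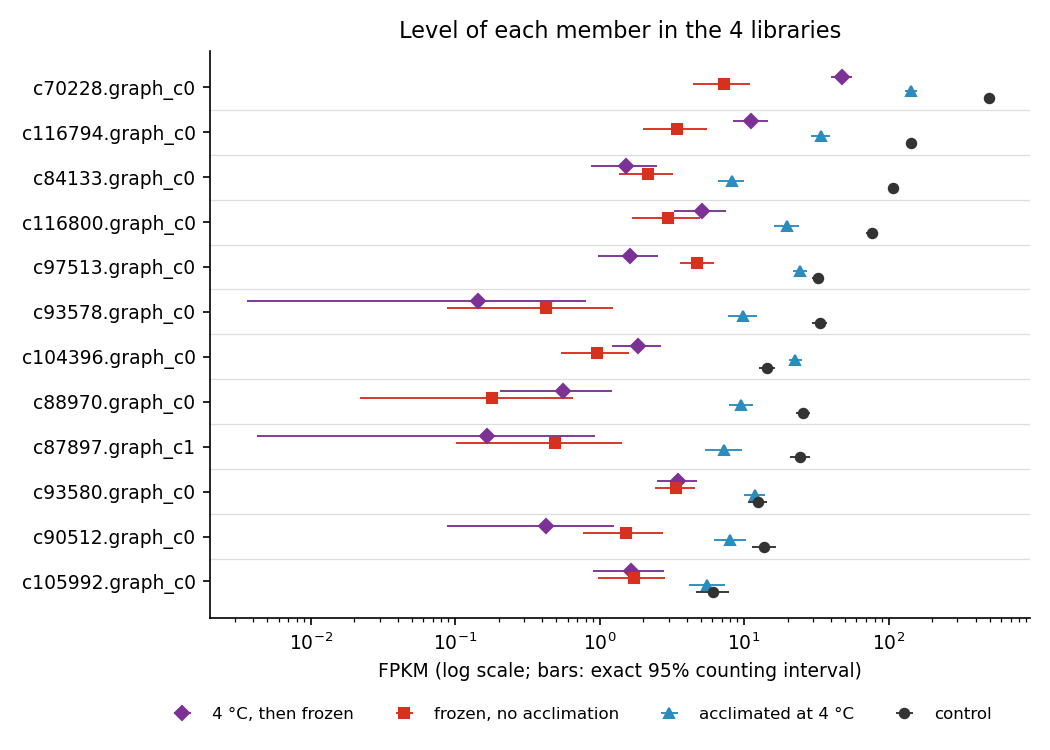
FPKM of the 12 members (rows, ordered by mean unfrozen level) on a log axis in the acclimated and frozen, frozen, acclimated and control libraries, with exact 95% counting intervals as bars. The control marker is the rightmost in 11 rows, and c104396.graph_c0 is the exception.

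Few abundant unigenes lay this far on the lower side. Of the 14444 unigenes with at least 5 FPKM in both unfrozen libraries, 1500 (10.4%) had a smaller unfrozen level above their larger frozen level, by any margin. Setting a minimum against a maximum puts most unigenes below equality by construction. The same rule turned round (both frozen libraries at least 5 FPKM and at least 3 times both unfrozen ones) held for 571 of all 93837 unigenes. These need not reach 5 FPKM in the unfrozen libraries (their median in the control was 1.81 FPKM), so the 14444 are not their base. Among the same 14444 unigenes, the 3-fold condition was also applied within states. It held for 193 between acclimated and acclimated and frozen leaves and for 135 between control and frozen leaves. Both held for 23, of which 11 missed the rule across states. In 8 of these 11 the acclimated level was under 3 times the frozen one, and in 3 the control level was under 3 times the acclimated and frozen one.

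**Figure D2:**
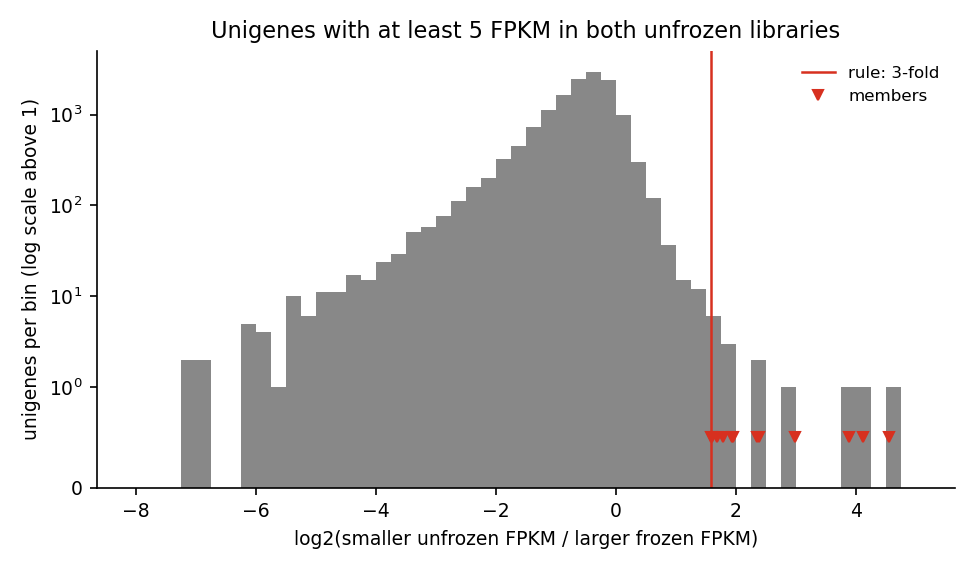
Histogram of the log2 ratio of the smaller unfrozen FPKM to the larger frozen FPKM over the 14444 unigenes with at least 5 FPKM in both unfrozen libraries (vertical axis logarithmic above 1). The red line marks 3-fold, and triangles mark the 12 members, which run from a ratio of 3.004 to 23.3.

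The edge of the group was not sharp. The nearest members inside were c70228.graph_c0 at a ratio of 3.004, c116794.graph_c0 at 3.05 and c105992.graph_c0 at 3.21. The nearest unigenes outside were c81283.graph_c0 at 2.91, c98758.graph_c0 at 2.89 and c99794.graph_c0 at 2.87. The last of these had 1.17 FPKM in the acclimated and frozen library and 2.60 FPKM in the frozen one, against 10.3 FPKM in the acclimated and 7.46 FPKM in the control.

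The first 4 members by level were abundant in the control, lower after acclimation and lower again after freezing. The most abundant, c70228.graph_c0, had 47.4 FPKM (135 counts) in acclimated and frozen leaves and 7.21 FPKM (21 counts) in frozen leaves, against 142 FPKM (439 counts) in acclimated and 499 FPKM (1599 counts) in control leaves. Its 4 levels are all separate beyond their counting intervals, and the frozen library without acclimation is the lowest. It and the next unigene, c116794.graph_c0, met the rule with the deposited FPKM but not with FPKM rescaled by TMM (the scaling of the ratios below) or by median-of-ratios factors. Unigene c116794.graph_c0 had 11.2 FPKM (54 counts) in acclimated and frozen leaves and 3.43 FPKM (17 counts) in frozen leaves, against 34.0 FPKM (178 counts) in acclimated and 143 FPKM (776 counts) in control leaves. Unigene c116800.graph_c0 had 5.09 FPKM (25 counts) in acclimated and frozen leaves and 2.99 FPKM (15 counts) in frozen leaves, against 19.8 FPKM (105 counts) in acclimated and 76.4 FPKM (422 counts) in control leaves. By FPKM these 3 unigenes had one order of libraries, with control highest, then acclimated, then acclimated and frozen, then frozen.

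Unigene c84133.graph_c0 had 1.53 FPKM (16 counts) in acclimated and frozen leaves and 2.15 FPKM (23 counts) in frozen leaves, against 8.21 FPKM (93 counts) in acclimated and 108 FPKM (1269 counts) in control leaves. It differed from the first 3 in that acclimation alone left it at 7.62% of the control FPKM, the lowest such share among the members. Its frozen levels lay close together, and the log2 ratio of the acclimated and frozen to the frozen library was -0.22 with an interval of -1.25 to 0.75, which includes equal levels.

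Another 3 members, those with at most 6 counts in each frozen library, were almost lost after freezing. Unigene c93578.graph_c0 had 0.144 FPKM (1 count) in acclimated and frozen leaves and 0.423 FPKM (3 counts) in frozen leaves, against 9.86 FPKM (74 counts) in acclimated and 33.5 FPKM (261 counts) in control leaves. Unigene c87897.graph_c1 had 0.167 FPKM (1 count) in acclimated and frozen leaves and 0.490 FPKM (3 counts) in frozen leaves, against 7.25 FPKM (47 counts) in acclimated and 24.5 FPKM (165 counts) in control leaves. Unigene c88970.graph_c0 had 0.556 FPKM (6 counts) in acclimated and frozen leaves and 0.181 FPKM (2 counts) in frozen leaves, against 9.59 FPKM (112 counts) in acclimated and 25.5 FPKM (309 counts) in control leaves. All 3 had their higher unfrozen level in the control. They had the largest ratios of the smaller unfrozen to the larger frozen level, 23.3 for c93578.graph_c0, 17.2 for c88970.graph_c0 and 14.8 for c87897.graph_c1. A count of 1 has an exact interval of 0.0253 to 5.57 counts, so the order of the frozen libraries is not resolved for these unigenes.

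A further 3 members had unfrozen levels less than 2-fold apart and a ratio of more than 5 to the larger frozen level. Unigene c104396.graph_c0 had 1.84 FPKM (28 counts) in acclimated and frozen leaves and 0.963 FPKM (15 counts) in frozen leaves, against 22.6 FPKM (373 counts) in acclimated and 14.5 FPKM (249 counts) in control leaves. It alone among the members had its highest level in the acclimated library. Unigene c97513.graph_c0 had 1.62 FPKM (19 counts) in acclimated and frozen leaves and 4.74 FPKM (57 counts) in frozen leaves, against 24.3 FPKM (309 counts) in acclimated and 32.5 FPKM (430 counts) in control leaves. Unigene c90512.graph_c0 had 0.428 FPKM (3 counts) in acclimated and frozen leaves and 1.53 FPKM (11 counts) in frozen leaves, against 8.04 FPKM (61 counts) in acclimated and 13.8 FPKM (109 counts) in control leaves. The acclimated and frozen library was the lower frozen one for c97513.graph_c0 and c90512.graph_c0, and the higher one for c104396.graph_c0.

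The last 2 members held nearly the same pair of levels in both states. Unigene c93580.graph_c0 had 3.47 FPKM (41 counts) in acclimated and frozen leaves and 3.39 FPKM (41 counts) in frozen leaves, against 11.9 FPKM (152 counts) in acclimated and 12.4 FPKM (165 counts) in control leaves. Unigene c105992.graph_c0 had 1.65 FPKM (14 counts) in acclimated and frozen leaves and 1.73 FPKM (15 counts) in frozen leaves, against 5.57 FPKM (51 counts) in acclimated and 6.09 FPKM (58 counts) in control leaves. In both, the acclimated and control libraries and the frozen pair differed by no more than the counting intervals allow.

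The size of the freezing step was set out for each state as the log2 ratio of counts scaled by TMM (trimmed mean of M-values). This scaling averages the log ratios between libraries after the most extreme unigenes are left out. After acclimation the members' log2 ratio to the acclimated library ran from -5.45 to -1.51, with a median of -2.92, beside a median of -0.04 over all unigenes compared. Without acclimation the log2 ratio to the control ran from -6.98 to -1.94, with a median of -5.15, beside 0.06 over all unigenes compared. A unigene was called where its whole interval lay beyond 2-fold. By this measure 11 members were called lower in acclimated and frozen than in acclimated leaves, where 0.926% of all unigenes compared were, and 12 in frozen than in control leaves, where 1.27% were. These contrasts chose the members, so nothing is read from those shares. The member not called was c105992.graph_c0, with a log2 ratio of -1.64 and an interval of -2.65 to -0.80 after acclimation. Among all unigenes, 82 were called lower at both steps (0.125% of those compared), and 11 of these were members.

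**Figure D3:**
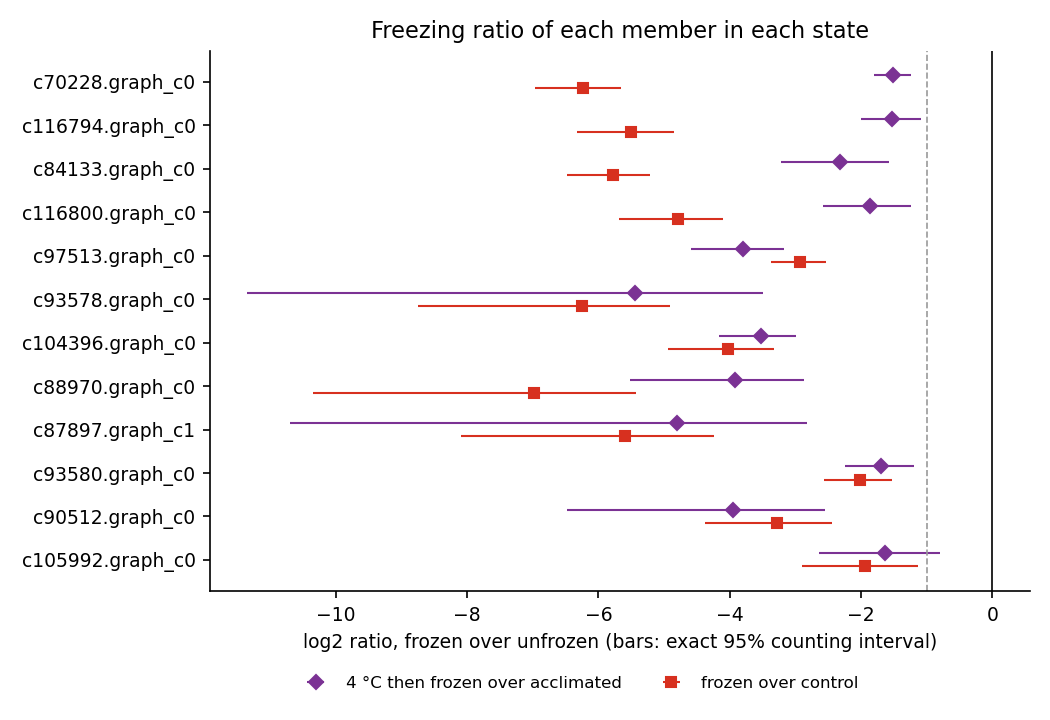
Log2 ratio of frozen over unfrozen leaves for each member, after acclimation (diamonds) and without it (squares), with exact 95% counting intervals; the dashed line marks a 2-fold lower level. For the first 4 rows the square lies well left of the diamond, and for the rows from c97513.graph_c0 down the intervals of the pair overlap.

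For 4 members the step was deeper without acclimation than after it. The step without acclimation runs from normal conditions to -4 °C and the other from 4 °C, so the ratios differ in starting point as well. The log2 response after acclimation minus that without it was 4.73 for c70228.graph_c0 (interval 4.06 to 5.41), 3.97 for c116794.graph_c0 (3.16 to 4.78), 3.46 for c84133.graph_c0 (2.51 to 4.42) and 2.93 for c116800.graph_c0 (1.97 to 3.89). Over the table, 2.03% of the 48004 unigenes with at least 10 counts had such an interval wholly beyond 2-fold on this side and 2.72% on the other. Levels before freezing differed too, since all 4 were 3.50-fold to 13.1-fold lower in acclimated than in control leaves by FPKM. For the remaining 8 members the interval did not lie wholly beyond 2-fold. Their differences ran from -0.87 for c97513.graph_c0 (-1.64 to -0.10) to 3.05 for c88970.graph_c0 (0.92 to 5.18). The rule bounds both steps, so these differences are a description.

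The ratio of acclimated to control leaves was not itself set by the rule, but both libraries entered it, so the values that follow are a description and nothing is read from the members' share of calls. The acclimated level was below the control level in 11 of 12 members by FPKM, and the median log2 ratio of acclimated to control leaves was -1.55. By the same interval measure 7 members were called lower in acclimated leaves and 0 higher. Over all 78314 unigenes compared, 4.02% were called lower and 4.79% higher. Among the 14444 unigenes with at least 5 FPKM in both libraries, 5.49% were called lower and 10.8% higher, and the median log2 ratio was 0.08. The 7 members were the abundant 4 and the near-lost 3 described above. Their log2 ratios ran from -3.68 for c84133.graph_c0 (interval -4.01 to -3.39) to -1.38 for c88970.graph_c0 (-1.71 to -1.07). Of the other 5, c104396.graph_c0 had 0.66 (0.43 to 0.90), c97513.graph_c0 -0.40 (-0.61 to -0.18) and c90512.graph_c0 -0.75 (-1.23 to -0.29), all short of 2-fold. For c93580.graph_c0 (-0.04) and c105992.graph_c0 (-0.10) the interval included equal levels.

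This ratio shares the control library with the freezing step that helped choose the members. Within the 14444, 135 unigenes were chosen on control against frozen leaves, without regard to the other state. Of these, 58 (43.0%) were called lower after acclimation and 8 higher. The 193 chosen on acclimated against acclimated and frozen leaves had 20 (10.4%) called lower and 43 higher. The 11 unigenes that met both within-state conditions but not the rule had 4 lower and 2 higher. Both larger sets hold these 11 and all 12 members, which were chosen by the FPKM of all 4 libraries. The 58 and the 20 therefore each include the 4 lower calls of the 11 and the members' 7. The shares without these unigenes were not computed. The part of the shared libraries in the members' 7 lower calls was not tested.

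Between the frozen libraries the members had no common direction. The level was higher with prior acclimation than without it in 6 members and lower in 6 by FPKM, and the median log2 ratio of TMM-scaled counts was 0.24. Called higher with prior acclimation were 2 members, c70228.graph_c0 at a log2 ratio of 2.95 (interval 2.31 to 3.72) and c116794.graph_c0 at 1.93 (1.15 to 2.84), and 0 were called lower. Over all 81786 unigenes compared, 3.42% were called higher and 2.84% lower. The intervals of c116800.graph_c0 (1.01, from 0.05 to 2.06) and c104396.graph_c0 (1.17, from 0.24 to 2.20) excluded equal levels on the higher side. With libraries scaled by total counts both included equal levels (lower bounds -0.21 and -0.02), and the call of c116794.graph_c0 was lost (0.89 to 2.58). On the lower side the interval of c97513.graph_c0 excluded equal levels, at -1.27 (-2.12 to -0.52), and also with total counts (-2.38 to -0.78). The other 7 members could not be ordered between the frozen libraries at this depth.

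**Figure D4:**
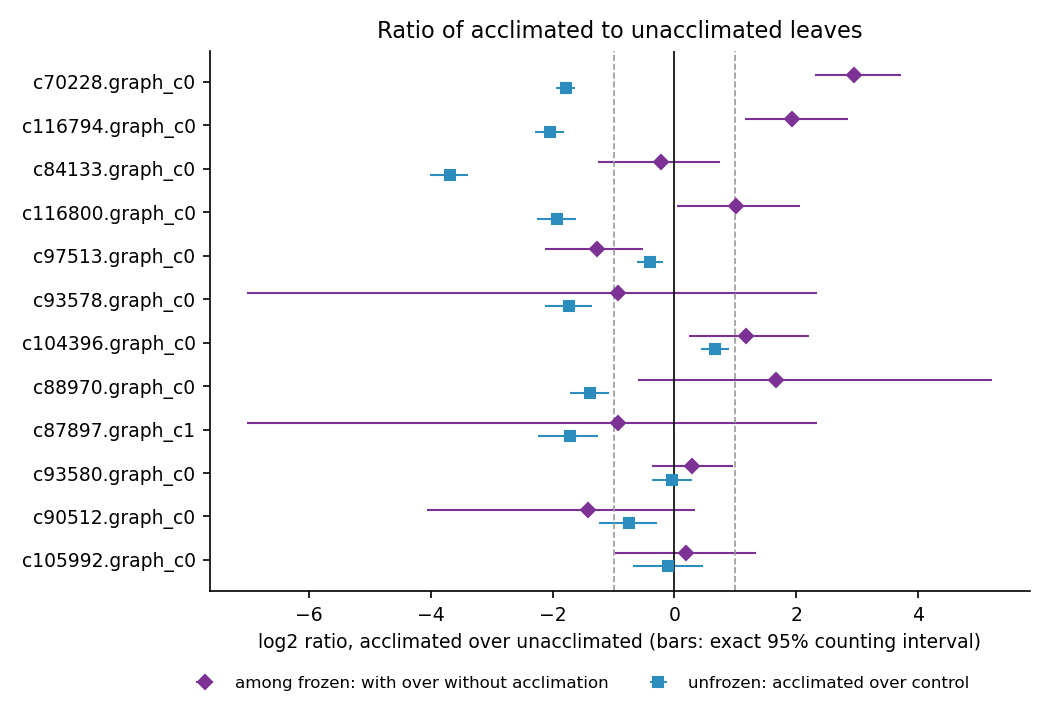
Log2 ratio of acclimated over unacclimated leaves for each member, among frozen leaves (diamonds) and among unfrozen leaves (squares), with exact 95% counting intervals; dashed lines mark 2-fold. In the rows of c70228.graph_c0 and c116794.graph_c0 the markers lie beyond 2-fold on opposite sides of 0.

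Length was not used by the rule except through FPKM. The members were 203 to 1086 bases long, with a median of 552 bases and quartiles of 408 and 786. The shortest was c70228.graph_c0 and the longest c104396.graph_c0. The 14444 unigenes with at least 5 FPKM in both unfrozen libraries had a median of 1239 bases (quartiles 820 and 1814), and 41.2% of them were no longer than the longest member. The 571 unigenes higher in both frozen libraries by the reversed rule had a median of 1097 bases. All unigenes of the table had a median of 407 bases. The members were thus short beside the unigenes with at least 5 FPKM, which were not matched to them in level, but not for the table. Short unigenes have fewer counts at a given FPKM, and the part of this in which unigenes met the rule was not tested. Of the 14444 unigenes with at least 5 FPKM in both unfrozen libraries, 5949 were no longer than the longest member. Among these 5949, 6.14% were called lower after acclimation and 7.68% higher.

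**Figure D5:**
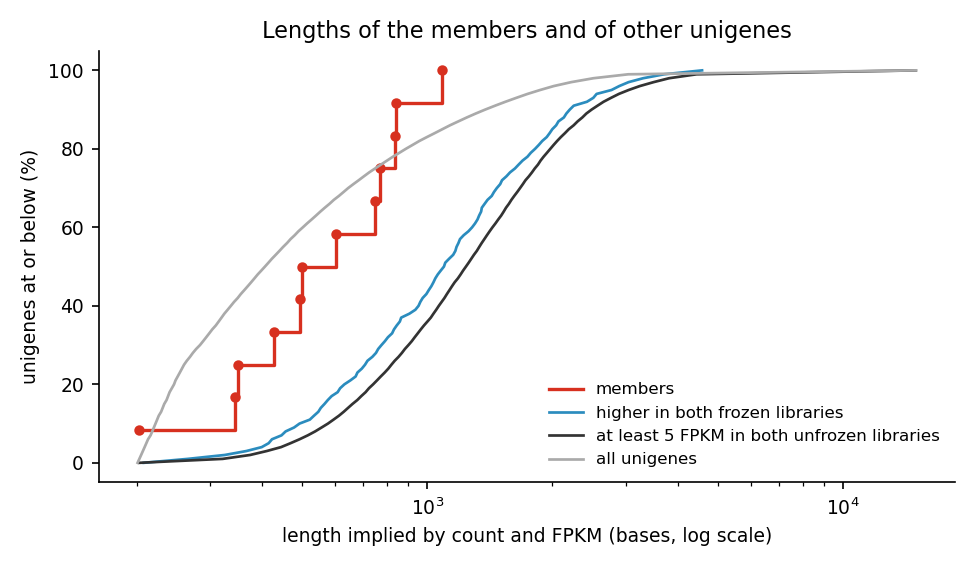
Cumulative share of unigenes by implied length on a log axis for the members (steps), the unigenes higher in both frozen libraries, those with at least 5 FPKM in both unfrozen libraries and all unigenes. The members' steps end at 1086 bases, left of the middle of the curve for unigenes with at least 5 FPKM in both unfrozen libraries.

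The identifiers give an assembly component and a part of it. No 2 members shared a component. Only 2 members had other listed parts of their component, and these were nearly empty: c87897.graph_c0 and c87897.graph_c2 had at most 2 counts in any library, and c105992.graph_c1 at most 1. Some members stood close in component number, with a step of 6 between c116794.graph_c0 and c116800.graph_c0 and of 2 between c93578.graph_c0 and c93580.graph_c0. The first pair had lengths of 345 and 350 bases. Its levels were 7.83% and 6.67% of the control FPKM after acclimation and freezing, and 23.8% and 25.9% after acclimation. After freezing without acclimation they were 2.41% (17 counts) and 3.91% (15 counts) of the control FPKM. The intervals of this log2 ratio overlap (-6.33 to -4.85 and -5.69 to -4.10), so a difference is not resolved. The second pair was unlike, at 494 and 843 bases and at 0.431% and 28.0% of the control FPKM after acclimation and freezing. Unigenes numbered between them did not meet the rule, for example c116795.graph_c0 with 12.1 FPKM in acclimated and frozen and 12.6 FPKM in frozen leaves, against 14.4 FPKM in acclimated and 19.3 FPKM in control leaves. Whether members near in number are copies of one gene was not tested.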

How the data were processed

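RNA-seq of 4 leaf libraries was used, 1 per treatment, each tied to its columns by the sample title. The table deposited by the authors gives a raw count and an FPKM per unigene. Deposited FPKM is proportional to count over library total in every library, which yields 1 implied length per unigene, used here as its length. The submitters' processing notes name Bowtie 0.12.2, Cufflinks and mm8, a mouse build. Assembly and counting steps were not given in the sources used here. Members were found from the deposited FPKM. Ratios used counts scaled by TMM (edgeR 4.0.16, R 4.3.3) with a prior count of 0.5. Exact Clopper-Pearson 95% intervals came from scipy 1.17.1, and unigenes with at least 1 count in the pair were compared. Differences of responses used the delta method. The call was tested on simulated data with counting error only and changes planted in well-counted unigenes. That test does not bear on spread between plants or on how changes at low counts are recovered. Alternatives were other scalings (total counts, DESeq2 1.42.0 median-of-ratios factors), thresholds and call rules. Members in the text are all 12, plus the 3 unigenes nearest outside. Members and choices were made with earlier results of these data known. No count model was applied, as treatments have 1 library each.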

Additional observations from a re-analysis of the deposited data

Results flagged for a closer look

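In 2 members the log2 ratio of acclimated to unacclimated leaves had opposite signs in unfrozen and in frozen leaves. With TMM scaling it lay beyond 2-fold by the counting interval each time. The log2 ratio with prior acclimation over without it among frozen leaves was set against that of acclimated over control leaves. The first minus the second was 4.73 for c70228.graph_c0 and 3.97 for c116794.graph_c0. By arithmetic these are the differences of freezing responses given above, so they are no second observation. The FPKM of every library entered the rule, so they are a description. With 1 library per treatment the difference was not tested against the spread between plants. For c116794.graph_c0 the call among frozen leaves is lost with scaling by total counts, at a log2 ratio of 1.67. Both unigenes lay at the 3-fold edge of the rule and did not meet it with FPKM rescaled by TMM, the scaling of these ratios, or by median-of-ratios factors.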

How the results depend on the processing

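Requiring at least 100 counts over the 4 libraries left all 12 members. The number moved with the FPKM and fold thresholds, and the looser groups held all 12 while the stricter ones lay within them: 43 unigenes with a minimum of 2 FPKM, 6 with 10 FPKM, 42 with a fold of 2, 6 with a fold of 5 and 23 with the within-state conditions alone. Where the whole counting interval of all 4 ratios had to lie beyond 3-fold, 5 were left: c97513.graph_c0, c93578.graph_c0, c104396.graph_c0, c88970.graph_c0 and c87897.graph_c1. FPKM rescaled with TMM gave 14 unigenes and with median-of-ratios factors 16. Each shared 10 with the members and lost c70228.graph_c0 and c116794.graph_c0. The 7 lower calls after acclimation stayed between 7 and 9. When calls needed only an interval clear of equality, 1 member was higher after acclimation, and among frozen leaves 4 were higher and 1 lower. Total counts left 1 higher call among frozen leaves, and the log2(FPKM + 1) rule gave 1 lower. The members' median length was 0.445 times that of unigenes with at least 5 FPKM in both unfrozen libraries. It was 1.36 times that of all unigenes, most of which are scarce and short. The restriction to unigenes no longer than the longest member was chosen after seeing the data. Over the scalings and prior counts tried, the members' median log2 freezing ratio ran from -2.99 to -2.84 after acclimation and from -5.19 to -4.88 without it. No paired analysis was possible because each treatment has 1 library, and for the same reason no replicate could be left out. Depth limits the frozen side, where 4 members had at most 3 counts in some frozen library.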
